A study of Homo sapiens with 3 samples.

Results

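The comparison described here set the siPRMT6-1 library against the siNC library, all genes with at least 15 counts summed over both. It took in 6711 of the 26485 genes in the count table. RNA was taken at 48 h from HEC1B, an established cell line of human endometrial cancer. The siNC library came from cells with the control siRNA (genotype given as WT), and the siPRMT6-1 library came from cells with one of the siRNAs against PRMT6 (genotype given as PRMT6 knockdown, and called si2 in the description). A library of a second such siRNA, siPRMT6-2 (called si3 in the description), shares the siNC control, and its counts are given only beside those of siPRMT6-1. Each group held 1 library of 1 cell line, so no ratio has a replicate check, and what differs between the libraries cannot be told apart from what differs between the siRNAs.

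PRMT6 is a nuclear enzyme that places asymmetric dimethyl marks on arginines, among them an arginine in the tail of histone H3. That mark hinders binding and deposition of the nearby lysine methylation found at active promoters, and PRMT6 is best known as a transcriptional repressor, of the cell cycle inhibitor gene CDKN1A for example. An siRNA lowers a messenger RNA through the RNA-induced silencing complex, and double-stranded RNA can also set off the interferon response, in which secreted interferons signal through JAK kinases and STAT factors to switch on antiviral genes. The library described here was singled out because it had lost PRMT6 while its interferon-stimulated genes lay near those of siNC.

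Few counts were assigned to genes, 410916 with siNC, 381628 with siPRMT6-1 and 362080 with siPRMT6-2. These totals are not the number of reads sequenced. There were 5754 genes with 10 or more counts in siNC and 5679 in siPRMT6-1. A ratio is siPRMT6-1 to siNC after depth scaling, and its 95% exact binomial interval covers counting error only. A gene was called higher or lower when the ratio was at least 2 or at most 0.5 and the interval excluded 1. Below 34 counts over both libraries, a ratio between 2 and 2.2 could not be called. The strand of the counts is uncertain. Of 122 genes named as antisense and set beside the gene they lie opposite, 106 outnumbered that gene in the siNC counts and 105 in those of siPRMT6-1. Genes with exon bases opposite another gene were 13.6% of the count table. They held 51.3% of the siNC counts and 49.2% of the siPRMT6-1 counts. Were reads counted against the wrong strand throughout, clear genes would be affected too. Genes with exon bases opposite another gene are described apart from the rest, and clear genes are those with none in the count table's gene models. Epithelial markers were led by KRT8, PAX8 and KRT18, while CDH1 and KRT19 were the 2 of 9 markers at 0 counts in all 3 libraries and EPCAM had 5, 5 and 4 counts. Here and where 3 counts follow each other, the order is siNC, siPRMT6-1, siPRMT6-2.

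PRMT6, the targeted gene, was lower. It lies on the plus strand of chromosome 1 in hg38, from 107056645 to 107059296. There were 25 counts with siNC, with a 95% exact Poisson interval of 16.2 to 36.9, and 4 with siPRMT6-1, with an interval of 1.09 to 10.2. The ratio was 0.168 (interval 0.0425 to 0.487). In siPRMT6-2 it had 7 counts (2.81 to 14.4). The library was chosen with this loss known, so these values are a description. WDR77, which encodes the methylosome partner of another arginine methyltransferase, PRMT5, was the called member among the 11 arginine methyltransferase and demethylase genes. It had 5 counts with siNC, 19 with siPRMT6-1 and 12 with siPRMT6-2, a ratio of 3.99 (1.44 to 13.7), but it shares exon bases with ATP5F1 on the opposite strand. PRMT5 had 14, 23 and 24 counts and CARM1, the coactivator-associated methyltransferase, 79, 77 and 58. Neither was called.

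Of the 6711 genes, 209 were called higher (3.11%) and 189 lower (2.82%), and the median log2 ratio was 0.00. At these shares few calls would arise in most of the gene lists below. A list with none called thus says little about its genes. Whatever the ratio, 5.84% of genes had an interval above 1 and 6.71% an interval below 1. Among the 4743 clear genes the shares were 3.29% higher and 3.01% lower, and among the 1968 with opposite-strand exon bases they were 2.69% and 2.34%. Most called genes had few counts. There were 86 higher and 73 lower among the 2544 genes with 15 to 29 counts, and 108 and 94 among the 2851 with 30 to 99. With 100 or more and under 300 counts 13 of 927 genes were called in each direction. Among the 389 genes with 300 or more, 2 were higher and 9 lower. The higher pair were MIR7641-2 and MALAT1, and the lower genes were ST7L, AHNAK, ITGA3, HMGA1, ERCC1, PCNA-AS1, NUCB1-AS1, HIF1A-AS2 and PITRM1-AS1. Just outside the rule 274 genes had 14 counts, and just inside it 262 had 15.

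**Figure D1:**
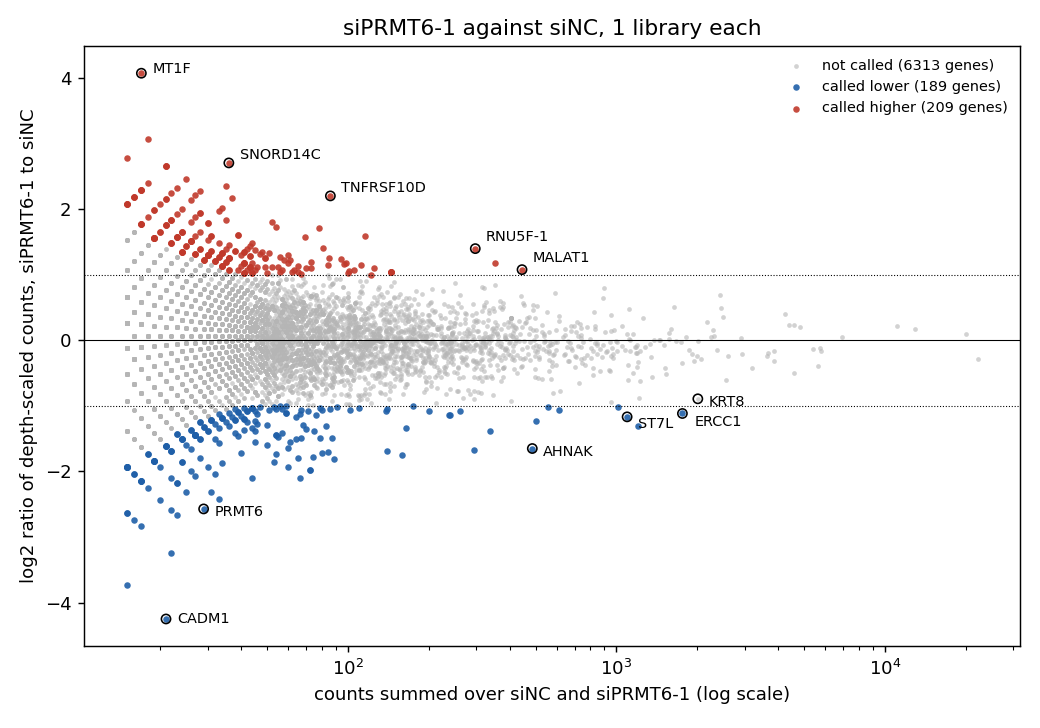
Each point is 1 of the 6711 genes, with counts summed over siNC and siPRMT6-1 on the x axis (log scale) and the log2 ratio of depth-scaled counts, siPRMT6-1 to siNC, on the y axis. The dotted lines mark ratios of 2 and 0.5. The 209 higher genes (red) and 189 lower genes (blue) lie mainly below 100 counts, and KRT8, with a ratio of 0.538, stays inside the lines.

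Short genes made up a larger share of the higher calls than of the table. At most 300 exonic bases were found in 12 of the 209 higher genes (5.74%), in 2 of the 189 lower genes (1.06%) and in 80 of all 6711 (1.19%). Small noncoding RNAs, by their GENCODE type, numbered 68 genes at 57 loci. Of these 16 genes at 12 loci were called higher and 2 lower, so that 23.5% of them were higher against 3.11% of all genes. A ratio over 1 was found in 57 of the 68, with a median log2 ratio of 0.56. Their summed counts were 28093 with siNC, 31433 with siPRMT6-1 and 29035 with siPRMT6-2, a ratio of 1.18 (1.16 to 1.19). These sums are not depth-scaled. The scaled depth of siPRMT6-2 was 332796, against 405892 for siNC and 386352 for siPRMT6-1. After depth scaling the siPRMT6-2 sum thus lay above those of both siNC and siPRMT6-1, so a raised sum was not particular to siPRMT6-1. Recovery of short fragments can differ between libraries, and its part in these values was not tested.

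The small nucleolar RNAs called higher are mostly intron-derived guides for chemical modification of other RNAs. Box C/D members guide ribose methylation and box H/ACA members guide pseudouridylation. Those in the next lines were chosen because they represent both classes and show how short the counted RNAs are, and the sequences are those of GENCODE release 29 (GRCh38). Capitals mark GATGA within the first 15 bases (the core of box C) and CTGA within the last 15 (box D), or the ACA that stands 3 bases before the end of an H/ACA RNA. RNY1, a Y RNA that is bound by the Ro60 protein, has no capitals.
SNORD14C: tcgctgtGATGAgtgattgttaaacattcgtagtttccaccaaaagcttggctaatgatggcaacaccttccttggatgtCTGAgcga
SNORD26: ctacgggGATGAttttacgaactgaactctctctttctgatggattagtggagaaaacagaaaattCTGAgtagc
SNORD35A: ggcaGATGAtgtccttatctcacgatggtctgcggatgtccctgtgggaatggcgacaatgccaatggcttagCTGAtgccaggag
SNORA31: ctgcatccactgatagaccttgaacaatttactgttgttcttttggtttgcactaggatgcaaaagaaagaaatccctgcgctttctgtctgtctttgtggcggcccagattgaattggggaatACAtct
RNY1: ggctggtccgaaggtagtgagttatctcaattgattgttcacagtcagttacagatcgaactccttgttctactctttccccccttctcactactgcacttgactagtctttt
Both box C/D letters were found on the RNA strand in 71 of 96 SNORD genes with a sequence (74.0%), and the ACA in 50 of 58 SNORA genes (86.2%), so these letters are shared by most of the class and not particular to the higher members.

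SNORD14C (chromosome 11, 123059335 to 123059422, minus strand) had 5 counts with siNC, 31 with siPRMT6-1 and 19 with siPRMT6-2, a ratio of 6.51 (2.51 to 21.5). Its host gene HSPA8, which encodes a constitutive heat shock chaperone, had 251, 196 and 213 counts and a ratio of 0.820 (0.677 to 0.993), on the other side of 1. SNORD26 (chromosome 11, 62855292 to 62855366, minus strand) had 2, 13 and 6 counts, a ratio of 6.83 (1.55 to 62.3), while its host SNHG1 had 4, 7 and 9. SNORD35A (chromosome 19, 49491175 to 49491260, plus strand) had 10, 23 and 10 counts, a ratio of 2.42 (1.11 to 5.69). Its host RPL13A, a ribosomal protein gene, had 121, 153 and 108 and a ratio of 1.33 (1.04 to 1.70). The H/ACA RNA SNORA31 (chromosome 13, 45337480 to 45337609, minus strand) had 2, 16 and 5 counts, a ratio of 8.40 (1.98 to 75.3), and its host TPT1, whose gene model holds the same bases, had 105, 112 and 87. The siPRMT6-1 library was the highest of the 3 for each of these small RNAs, and the intervals of those with 2 counts in siNC are wide.

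Over the whole list of 411 small nucleolar and Cajal body RNAs, 217 were at 0 in all 3 libraries and 45 had at least 15 counts. Of these 45, 9 were called higher and 2 lower (against 3.11% and 2.82% of all genes), and the median log2 ratio was 0.57 against 0.00 for all genes. The summed counts were 3011 with siNC, 3588 with siPRMT6-1 and 3159 with siPRMT6-2, with a ratio of 1.25 (1.19 to 1.31). These sums are not depth-scaled either. After scaling, that of siPRMT6-2 lay above siNC and close to siPRMT6-1. SNORD13, which takes part in acetylation of ribosomal RNA, had 18, 51 and 24 counts, a ratio of 2.98 (1.71 to 5.41), and the coding gene TTI2 overlaps it on the opposite strand in GENCODE. SNORA16A had 12, 40 and 12 counts and a ratio of 3.50 (1.80 to 7.33), and its host SNHG12 7, 4 and 15. SNORD50A had 11, 27 and 27 counts, SNORA71D 8, 23 and 16, and SNORA21 4, 13 and 5. The lower members were SNORD3D, with 30, 14 and 28 counts, and SNORD49B, with 12, 3 and 6. SNORD3A, a near-identical copy of SNORD3D and the U3 RNA needed for ribosomal RNA cleavage, had 899, 838 and 1075 counts, a ratio of 0.979 (0.890 to 1.08), so the split of reads between these copies is uncertain.

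Among 100 abundant structural RNA genes, 27 had at least 15 counts, 8 were called higher and 0 lower, against 3.11% and 2.82% of all genes, and 5 of the 8 are RNU6 copies that hold the same reads. Their summed ratio was 1.16 (1.14 to 1.18), from 35310 counts in siNC and 38919 in siPRMT6-1, with 40619 in siPRMT6-2. RNU5F-1, a U5 spliceosomal RNA gene (chromosome 1, 44721786 to 44721901, minus strand), had 85 counts with siNC, 213 with siPRMT6-1 and 69 with siPRMT6-2, a ratio of 2.63 (2.04 to 3.43). RNY1 (chromosome 7, 148987136 to 148987248, minus strand) had 30, 86 and 11, a ratio of 3.01 (1.97 to 4.73). In both, siPRMT6-1 stood above the others. After depth scaling siPRMT6-2 lay level with siNC for RNU5F-1 and under it for RNY1. The genes RNU6-1, RNU6-2, RNU6-7, RNU6-8 and RNU6-9 hold the same reads of the U6 spliceosomal RNA, 49, 96 and 45 counts (ratio 2.06, 1.44 to 2.97), and count as 1 locus. RNU12, of the minor spliceosome, had 11, 23 and 21 counts (2.197, 1.03 to 4.99). Some of the larger RNAs had ratios nearer 1. RN7SL1, of the signal recognition particle, had 9938, 10139 and 10425 counts (1.07, 1.04 to 1.10) and RN7SK, which sequesters an elongation factor of RNA polymerase II, 5258, 5821 and 5574 (1.16, 1.12 to 1.21). Ribosomal RNA genes, named after their values were seen, went different ways. RNA18S5 had 442, 324 and 515 counts (0.770, 0.665 to 0.891) and RNA28S5 1875, 2356 and 2447 (1.32, 1.24 to 1.40). RNA45S5 had 3498, 3442 and 5486 (1.03, 0.986 to 1.08). Structural RNAs took 8.59% of the siNC library, 10.2% of siPRMT6-1 and 11.2% of siPRMT6-2.

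TROVE2, which encodes the Y RNA-binding protein Ro60, was also called higher. It had 23 counts with siNC, 58 with siPRMT6-1 and 30 with siPRMT6-2, a ratio of 2.65 (1.61 to 4.50). It shares 378 exon bases with UCHL5 on the opposite strand, which had 274, 338 and 165 counts, so which gene these reads belong to is uncertain. MIR7641-2 had 112, 240 and 81 counts, a ratio of 2.25 (1.79 to 2.84). Its models overlap the 5S ribosomal RNA genes on the same strand and SIAE on the other, and its counts are no measure of a mature microRNA.

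The list of nuclear long noncoding RNAs was higher in sum in the siPRMT6-1 library, mainly through MALAT1 and NEAT1. MALAT1, which is retained in nuclear speckles (chromosome 11, 65497762 to 65506512, plus strand), had 148 counts with siNC, 297 with siPRMT6-1 and 185 with siPRMT6-2. Its ratio was 2.11 (1.73 to 2.59), and it was called higher. NEAT1, the scaffold of paraspeckles, had 91, 159 and 72 counts and a ratio of 1.84 (1.41 to 2.40), short of the 2-fold needed for a call but with an interval above 1. Over the 26 genes of the list the summed counts were 442, 669 and 437, a ratio of 1.59 (1.41 to 1.80), or 1.33 without MALAT1. The median log2 ratio of the 10 with at least 15 counts was 0.52, and 7 had a ratio over 1. Besides MALAT1 and NEAT1, only LINC00657 of these 10 had an interval above 1, with 24, 39 and 31 counts (1.71, 1.00 to 2.97). SNHG16 went the other way, with 42, 11 and 38 counts (0.275, 0.128 to 0.544), and was called lower. GENCODE places the coding gene AC015802.6 opposite SNHG16. More nuclear RNA in a library and more of each transcript per cell cannot be told apart in bulk RNA, nor can fewer cells of a kind and less RNA per cell.

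**Figure D2:**
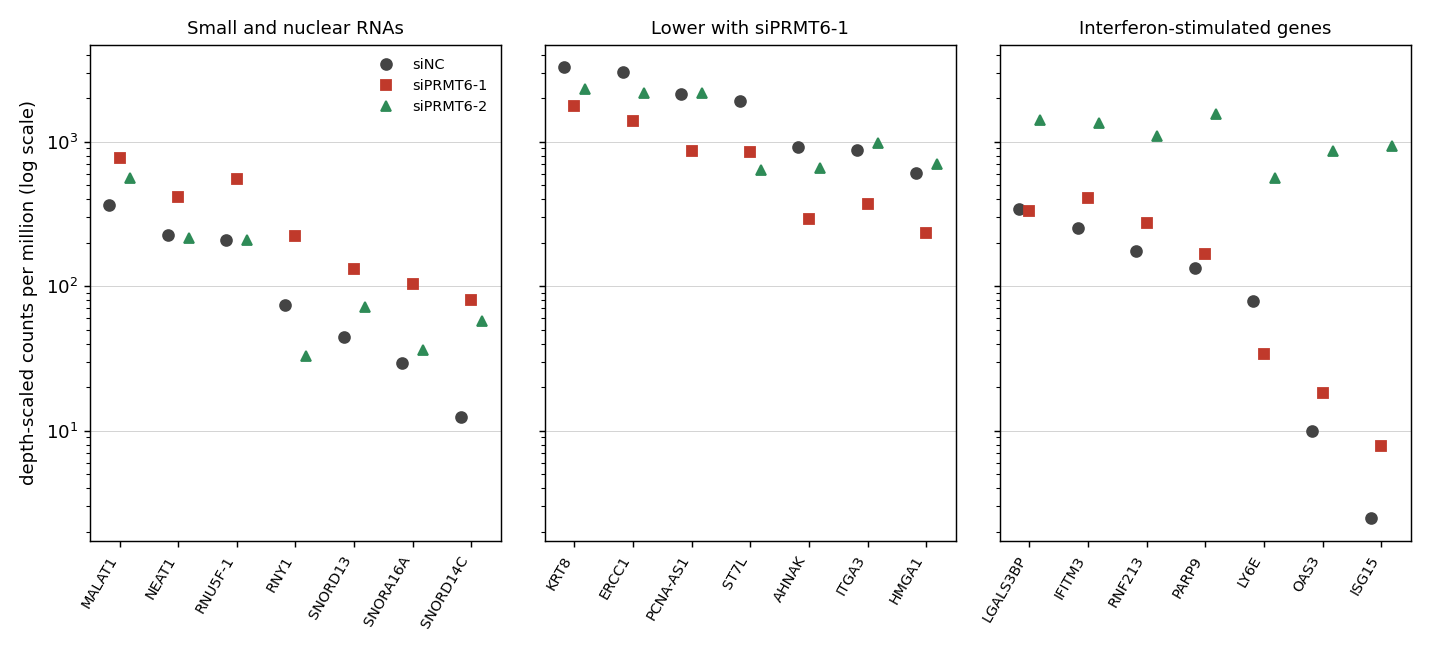
Depth-scaled counts as CPM (log scale) of single genes in the siNC (circles), siPRMT6-1 (squares) and siPRMT6-2 (triangles) libraries, 1 point a library, in panels of small and nuclear RNAs, genes lower with siPRMT6-1 (KRT8 among them without a call) and interferon-stimulated genes. The small and nuclear RNAs drawn are highest in siPRMT6-1, although the depth-scaled sum over all small noncoding RNAs is highest in siPRMT6-2. ISG15 (1, 3 and 308 counts) and OAS3 (4, 7 and 286) are far higher in siPRMT6-2 than in the others.

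The interferon programme lay close to that of siNC, although its sum was slightly above it. Of 62 interferon-stimulated genes, 29 were at 0 in both siNC and siPRMT6-1 and 5 in all 3 libraries, and 12 had at least 15 counts. None of the 12 was called higher and 1 was called lower, against 3.11% and 2.82% of all genes. At those shares few calls would arise among any 12 genes, so these counts say little about the programme. The summed counts were 576 with siNC, 688 with siPRMT6-1 and 4543 with siPRMT6-2. The ratio of siPRMT6-1 to siNC was 1.25 (1.12 to 1.40) and that of siPRMT6-2 to siPRMT6-1 was 7.67 (7.07 to 8.32). IFITM3, an antiviral membrane protein gene, had 103, 158 and 449 counts (ratio 1.61, 1.25 to 2.09). RNF213, which encodes a large ubiquitin ligase, had 71, 105 and 362 (1.55, 1.14 to 2.13). Those 2 were the members whose interval lay above 1, and without them, a choice made after seeing the data, the ratio was 1.11 (0.967 to 1.28). Leaving out such members lowers the ratio by construction, so this value does not place the programme at baseline. The sum was set mainly by the 12 members with at least 15 counts. Members with fewer, ISG15 and OAS3 among them, could not be called.

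LY6E, a membrane-anchored protein gene, was the called lower member, with 32 counts with siNC, 13 with siPRMT6-1 and 185 with siPRMT6-2, a ratio of 0.427 (0.206 to 0.836). LGALS3BP had 139, 128 and 467 counts and PARP9 54, 64 and 514. For each of these genes the siNC and siPRMT6-1 counts lay near each other, or lower with siPRMT6-1, and far under siPRMT6-2. Interferon ligand genes had 1 count with siNC, 0 with siPRMT6-1 and 9 with siPRMT6-2 over 9 genes. The 17 genes of interferon receptors and signalling had 122, 154 and 180 counts, a ratio of 1.33 (1.04 to 1.70), with 7 of 8 members over 1 and none called. Without IFNGR2 the interval was 0.994 to 1.72 and held 1. IFNGR2, a chain of the receptor for interferon gamma, had 23, 31 and 18 counts (1.42, 0.799 to 2.54). Genes of MHC class I antigen presentation had 619, 591 and 1488 counts and a ratio of 1.00 (0.895 to 1.13), and the near-identical HLA genes among them can share reads. The NF-kappaB and inflammation list was lower in sum, with 211, 150 and 376 counts (0.747, 0.602 to 0.925). TNFAIP2, a TNF-induced gene with 51, 14 and 53 counts (0.288, 0.147 to 0.529), was its called member, and the sum leaned on it. The intervals of all other members with at least 15 counts held 1. Under 15 counts, IL1A was higher with 1, 12 and 6 counts (12.6, 1.87 to 539). NFKBIA was lower with 10, 2 and 27 (0.210, 0.0224 to 0.986), and both were named after their values were seen. Leukocyte markers had 17, 19 and 57 counts in sum, nearly all of CD68, and PTPRC, CD3E, CD14, MS4A1 and CD79A were the 5 of 7 at 0 in all libraries.

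Outside the noncoding RNAs, the higher call with the interval farthest from 1 among clear genes was TNFRSF10D, a decoy receptor that binds the death ligand TRAIL without passing on a death signal. It had 16 counts with siNC, 70 with siPRMT6-1 and 8 with siPRMT6-2, a ratio of 4.60 (2.64 to 8.48). The siPRMT6-1 count stood alone above the others. In the list of 16 TRAIL and death receptor genes, TNFRSF1A, the main TNF receptor, was also called higher, with 15, 31 and 15 counts (2.17, 1.14 to 4.33). The signalling receptor TNFRSF10B had 82, 54 and 61 counts (0.692, 0.481 to 0.987), with an interval under 1 but no call. CFLAR, an inhibitor of caspase 8, had 113, 122 and 129 counts (1.13, 0.871 to 1.48). Over the 9 members with at least 15 counts, the median log2 ratio was 0.66, and the sum of all members had a ratio of 1.24 (1.07 to 1.45). That sum leaned on TNFRSF10D, with 16 counts in siNC and 70 in siPRMT6-1. Apart from TNFRSF10D and TNFRSF1A, no member had an interval above 1. The mitochondrial apoptosis list had a ratio of 1.08 (0.932 to 1.24) and no called member.

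MAP1LC3B, the ubiquitin-like protein that coats autophagosomes, had 7 counts with siNC, 30 with siPRMT6-1 and 8 with siPRMT6-2, a ratio of 4.50 (1.94 to 12.1). GABARAP, of the same protein family, had 9, 20 and 15 (2.33, 1.02 to 5.82). MCOLN1, a calcium channel of lysosomes, had 11, 25 and 11 counts (2.39, 1.13 to 5.38), and NPC2, which carries cholesterol out of lysosomes, had 3, 12 and 8 (4.20, 1.13 to 23.2). These were the 4 called members of 25 with at least 15 counts in the autophagy and lysosome list, all higher, where 3.11% of all genes were higher and 2.82% lower. The median log2 ratio of the list was 0.07 and its summed ratio 1.06 (0.985 to 1.13), or 1.09 (1.00 to 1.18) without SQSTM1. SQSTM1, an autophagy receptor, had 439, 407 and 332 counts and the protease gene CTSD 270, 269 and 219, both near 1.

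MT1F, a metallothionein gene whose protein binds zinc and copper, had 1 count with siNC, 16 with siPRMT6-1 and 7 with siPRMT6-2, a ratio of 16.8 with the wide interval of 2.61 to 705. MT2A, a far more deeply counted member of that family, had 121, 124 and 316 counts and a ratio of 1.08 (0.831 to 1.39), and it was named after its values were seen. Reads can be shared among the similar metallothionein genes. CFD, the complement protease factor D, had 4, 21 and 4 counts (5.52, 1.86 to 22.1). GJA9-MYCBP, a read-through gene, had 6, 29 and 23 counts (5.08, 2.07 to 14.96). Its reads are also those of MYCBP, with 5, 23 and 17. CC2D1B, SMG1P3 and SSSCA1-AS1 each had 3 counts in siNC and 18 in siPRMT6-1, a ratio of 6.30 (1.84 to 33.4), with 11, 7 and 14 in siPRMT6-2, and SMG1P3 is a copy of the SMG1 gene that can share its reads.

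Other higher calls in the lists were single genes. In DNA methylation, DNMT3A, which sets new methyl marks, had 6, 16 and 10 counts (2.80, 1.04 to 8.74) and TET3, which oxidises them, had 15, 29 and 13 (2.03, 1.05 to 4.08). CBX2, a Polycomb subunit that reads histone H3 methylation, was called lower with 20, 7 and 16 (0.368, 0.131 to 0.905). In the list of endoplasmic reticulum chaperones XBP1, a transcription factor of the unfolded protein response, had 6, 18 and 18 counts (3.15, 1.20 to 9.70). MLST8, an mTOR subunit gene, had 6, 17 and 11 (2.98, 1.12 to 9.22) but shares exon bases with BRICD5. LRP6, a Wnt co-receptor, had 3, 15 and 11 (5.25, 1.49 to 28.3), and TP53I3, a p53 target opposite FAM228B, 3, 14 and 8 (4.90, 1.37 to 26.6). None of the lists these belong to had a summed interval above 1.

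Among the lower clear genes, AHNAK, HMGA1, ITGA3 and ST7L had at least 300 counts. AHNAK, a very large scaffold protein under the plasma membrane (chromosome 11, 62433542 to 62546860, minus strand), had 373 counts with siNC, 113 with siPRMT6-1 and 219 with siPRMT6-2. Its ratio was 0.318 (0.256 to 0.394). MYO1C, a membrane-linked motor protein (chromosome 17, 1464186 to 1492707, minus strand), had 124, 35 and 71 counts (0.297, 0.198 to 0.435). HMGA1, an architectural chromatin protein (chromosome 6, 34236800 to 34246231, plus strand), had 248, 90 and 232 counts (0.381, 0.296 to 0.487). ITGA3, the alpha chain of a laminin receptor, had 357, 144 and 327 (0.424, 0.347 to 0.516) and was named after its values were seen, as the gene of these 4 that the rule left out. In AHNAK, MYO1C, HMGA1 and ITGA3 siPRMT6-1 had the lowest count of the 3 libraries. For HMGA1 and ITGA3 the siPRMT6-2 count lay near siNC, and for AHNAK and MYO1C it lay between.

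TGM2, a protein-crosslinking transglutaminase, had 58, 14 and 115 counts (0.254, 0.131 to 0.460), with siPRMT6-1 under siNC and siPRMT6-2 above it. WASF2, which drives branched actin assembly, had 58, 14 and 19 counts and the same ratio of 0.254. SNRPC, a protein of the U1 spliceosomal particle, had 54, 12 and 29 (0.233, 0.114 to 0.442). CADM1, a cell adhesion molecule, had 20, 1 and 7 counts (0.0525, 0.00127 to 0.328). BAP1, a nuclear deubiquitinase that acts on histone H2A, had 20, 2 and 12 counts (0.105, 0.0119 to 0.432). UCK2, a uridine kinase, had 14, 1 and 12 counts (0.0750, 0.00177 to 0.493), with the coding gene TMCO1 opposite it in GENCODE. ZNF395 had 28, 5 and 11 counts (0.188, 0.0566 to 0.492). ST7L had 770, 326 and 211 counts (0.445, 0.390 to 0.507), low with both siRNAs, and GENCODE places the coding genes WNT2B and CAPZA1 opposite it.

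**Figure D3:**
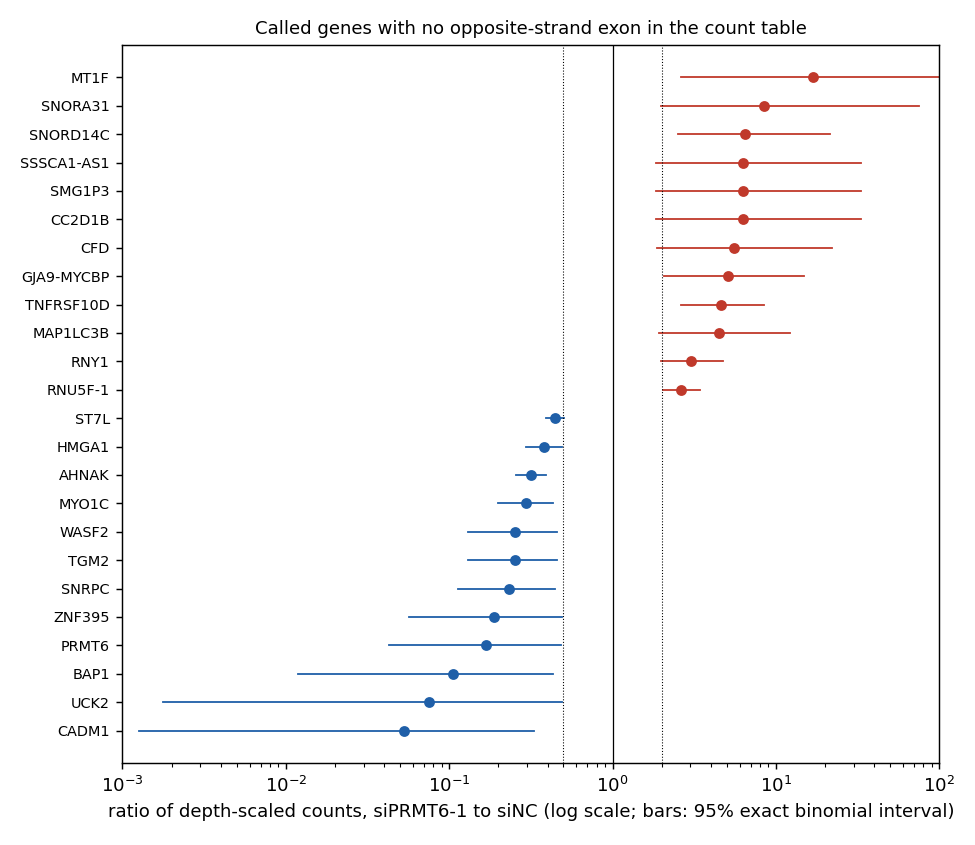
Ratio of depth-scaled counts, siPRMT6-1 to siNC, on a log axis, for the 12 higher (red) and 12 lower (blue) clear genes whose interval bound nearest 1 lies farthest from it. Bars are 95% exact binomial intervals, that of MT1F runs past the right edge to 705, and dotted lines mark ratios of 0.5 and 2. The narrow bars of ST7L, AHNAK, HMGA1 and RNU5F-1 are those of genes with the most counts.

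Several of the deepest lower genes have exon bases opposite another gene. PCNA-AS1 had 870 counts with siNC, 335 with siPRMT6-1 and 717 with siPRMT6-2, a ratio of 0.405 (0.356 to 0.459). PCNA, which encodes the sliding clamp of DNA replication and covers the same 384 bases, had 38, 12 and 33, a ratio of 0.332 (0.158 to 0.649). Both ratios lay far under 1 and their intervals overlap. PITRM1-AS1 had 377, 178 and 236 counts (0.496, 0.413 to 0.594), and PITRM1, a mitochondrial peptidase gene opposite it, 26, 6 and 11 (0.242, 0.0816 to 0.602). BMP6, a secreted growth factor gene, had 227, 68 and 132 counts (0.315, 0.236 to 0.414). Opposite it lie TXNDC5, a disulfide isomerase gene with 58, 16 and 28 counts (0.290, 0.156 to 0.511), and the read-through gene BLOC1S5-TXNDC5, with 48, 12 and 26. There were 819 opposite-strand pairs with both genes in the comparison. In 4 of them both genes were called, all lower, and these are the pairs just named. In 64 pairs 1 gene was called, and the partner's ratio lay on the same side of 1 in 31.

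ERCC1, a subunit of a DNA repair nuclease, had 1224 counts with siNC, 537 with siPRMT6-1 and 726 with siPRMT6-2, a ratio of 0.461 (0.416 to 0.511). CD3EAP, a polymerase I subunit gene opposite it, had 99, 97 and 82 counts and a ratio of 1.03 (0.770 to 1.38). NUCB1-AS1 had 687, 323 and 654 counts (0.494, 0.431 to 0.565) and NUCB1, a calcium-binding Golgi protein gene, 47, 24 and 57. HIF1A-AS2 had 421, 191 and 338 (0.477, 0.400 to 0.567) and HIF1A, the hypoxia factor gene, 16, 8 and 16. These antisense-named genes and PITRM1-AS1 were named after their values were seen. C22orf23 had 108, 32 and 50 counts (0.311, 0.203 to 0.466), MYLK-AS1 70, 19 and 38 (0.285, 0.162 to 0.479) and SNHG22 62, 18 and 30 (0.305, 0.170 to 0.522). Higher genes of this kind were DNAH17 (19, 59 and 29 counts), KIAA1656 (13, 41 and 21), NPB (7, 27 and 13), C11orf49 (7, 23 and 15) and NR1H3 (35, 70 and 83), a nuclear receptor of oxysterols. Which strand these counts stand for is uncertain in every case.

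Counts assigned to the keratin genes KRT8 and KRT18 were lower without reaching a call. KRT8, a keratin of simple epithelia, had 1329 counts with siNC, 681 with siPRMT6-1 and 770 with siPRMT6-2, a ratio of 0.538 (0.490 to 0.591). KRT18, its partner in filaments, had 129, 85 and 95 (0.692, 0.520 to 0.917), and the models of both genes share exon bases on opposite strands. Which strand these counts stand for is uncertain. PAX8, a transcription factor of the Muellerian epithelium, had 158, 117 and 227 counts (0.778, 0.607 to 0.994), with PAX8-AS1 opposite. The 9 epithelial markers summed to 1630, 890 and 1110 counts, a ratio of 0.574 (0.528 to 0.623), mostly those of KRT8. Without markers that have exons opposite another gene it was 0.525 (0.179 to 1.39). The epithelial junction and keratin list had a summed ratio of 0.621 (0.574 to 0.671) and 0.897 (0.773 to 1.04) without KRT8, an interval that holds 1. Fibroblast markers also had a ratio under 1, 0.712 (0.621 to 0.816), from COL1A1 with 515, 354 and 370 counts, and 0.394 (0.126 to 1.06) without it. Of 7 fibroblast markers 5 were at 0 in all 3 libraries.

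Cytosolic ribosomal protein genes were a little lower together. Of 76 with at least 15 counts, 53 had a ratio under 1, 11 an interval below 1 and 4 an interval above 1, with a median log2 ratio of -0.25. The summed counts of all 87 were 7383 with siNC, 6183 with siPRMT6-1 and 5636 with siPRMT6-2, a ratio of 0.880 (0.850 to 0.910). RPS2 was the called member, with 180, 81 and 128 counts (0.473, 0.359 to 0.618). RPL6 had 749, 596 and 395 counts (0.836, 0.749 to 0.932). RPS24, chosen after its values were seen, went the other way with 135, 192 and 106 (1.49, 1.19 to 1.88). Nuclear-encoded respiratory chain genes, in contrast, had 1520, 1696 and 1280 counts in sum, a ratio of 1.17 (1.09 to 1.26), and 32 of 47 members over 1. Called higher among them were NDUFB8, of complex I, with 29, 65 and 30 counts (2.35, 1.498 to 3.78), and ATP5L, of ATP synthase, with 10, 29 and 5 (3.05, 1.44 to 7.01). GENCODE places the coding gene HIF1AN opposite NDUFB8. ATP5J had 148, 199 and 78 (1.41, 1.14 to 1.76), with GABPA opposite it, and ATP5B 132, 167 and 125 (1.33, 1.05 to 1.68). Mitochondrial ribosomal proteins had a ratio of 0.965 (0.887 to 1.05).

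Glycolysis genes had a summed ratio of 0.865 (0.817 to 0.916), with 12 of 17 members under 1 and none called. GPI, the glucose-6-phosphate isomerase, had 323, 204 and 244 counts (0.664, 0.554 to 0.793) and ENO1, an enolase, 650, 541 and 523 (0.874, 0.779 to 0.982). SREBF1, a regulator of lipid synthesis, had 73, 37 and 40 counts (0.532, 0.348 to 0.801), with an interval below 1 and no call, and it has exon bases opposite RAI1. Replication-dependent histone genes had a ratio of 0.860 (0.806 to 0.916), and HIST1H2AM (22, 9 and 24 counts) and HIST1H4I (20, 7 and 25) were called lower, with similar histone genes able to share reads. Endoplasmic reticulum chaperones had a ratio of 0.855 (0.782 to 0.934). MANF, a secreted stress factor, was called lower there, with 30, 14 and 22 counts (0.490, 0.240 to 0.954). Of the same list TXNDC5 was also called lower and XBP1 higher, with the counts given above. HSPA5, the lead chaperone, had 93, 74 and 82 without a call. In the integrated stress response list STC2, a secreted glycoprotein gene, was the called member, lower with 26, 11 and 17 counts (0.444, 0.198 to 0.931). DDIT3, the stress factor CHOP, had 197, 109 and 70 counts (0.581, 0.456 to 0.738) and SLC7A5, an amino acid transporter, 204, 283 and 63 (1.46, 1.21 to 1.75), with intervals on opposite sides of 1. The sum of the list had a ratio of 0.932 (0.850 to 1.02), or 0.797 (0.716 to 0.887) without SLC7A5.

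**Figure D4:**
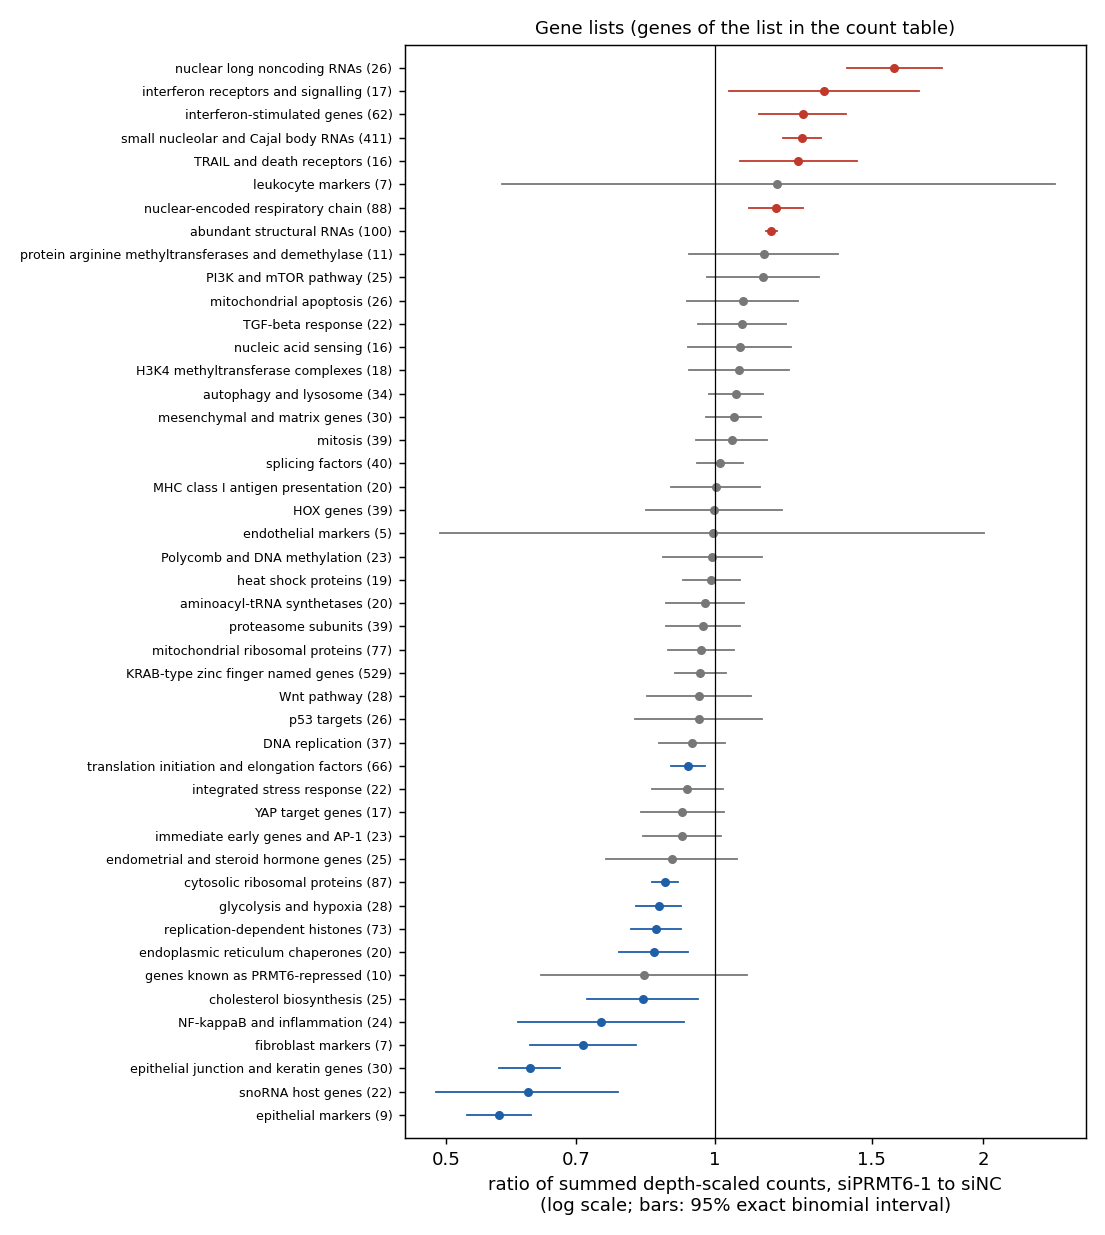
Ratio of summed depth-scaled counts, siPRMT6-1 to siNC, on a log axis for each gene list, with the number of its genes in the count table in parentheses. Bars are 95% exact binomial intervals of counting error, coloured where they exclude 1. Nuclear long noncoding RNAs, at 1.59, lie highest and epithelial markers, at 0.574, lowest.

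Of 10 genes known from other cells to be repressed by PRMT6, only HOXA10 and THBS1 had at least 15 counts, and neither was called. The others could not be called, CDKN1A among them with 8, 5 and 12 counts. The list had 131 counts with siNC, 104 with siPRMT6-1 and 113 with siPRMT6-2, mostly those of HOXA10 and THBS1. Its ratio was 0.834 (0.638 to 1.09). THBS1, a matrix glycoprotein that restrains vessel growth, had 42, 27 and 21 counts (0.675, 0.400 to 1.12), with the coding gene FSIP1 opposite it in GENCODE. HOXA10, a regulator of uterine identity, had 65, 61 and 58 (0.986, 0.684 to 1.42). Writers, partners and erasers of the opposing histone H3 lysine mark, in 1 list, had a summed ratio of 1.07 (0.937 to 1.21), with none of 10 members called, and HOX genes 1.00 (0.839 to 1.19). DNA replication genes had a ratio of 0.944 (0.867 to 1.03), with PCNA the called member of 29, and mitosis genes 1.05 (0.954 to 1.15) with none of 27 called, or 1.10 (1.00 to 1.22) without CCNA2. Over all genes 3.11% were called higher and 2.82% lower, so few calls would arise in lists of these sizes. The p53 targets had 0.960 (0.814 to 1.13). Of the 47 lists, 18 had an interval that excluded 1. The lists overlap, and a sum is set mainly by its most counted genes.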

How the data were processed

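Total RNA of HEC1B cells was sequenced after purification on spin columns and library making from 10 ng with a stranded low-input kit, per the labels' protocols. The submitters' processing notes name the aligner STAR 2.7.8a and the counter featureCounts 2.0.10. The counter's version is 2.0.1 per the file headers, which also give hg38 gene models, strand setting 1 and reads added to every overlapping gene. What the authors deposited is raw counts of each gene, not normalized.

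The depths of siNC and siPRMT6-1 were scaled with TMM (edgeR 4.0.16, R 4.3.3) over the 6711 genes. Exact binomial intervals (Clopper-Pearson, SciPy 1.17.1) were computed per gene and per list, and a side at 0 counts was set to a floor of 3 counts (7.39 CPM in siNC, 7.76 in siPRMT6-1). With 1 library a side no edgeR or DESeq2 test of conditions could be fitted. The calls compare 2 libraries. The calling was tested on simulated data.

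Genes named were PRMT6, the 12 clear genes called in each direction and the 8 with opposite-strand exons whose bound nearest 1 lay farthest from it, and each list's called members and 3 most counted genes. Others are said to be named after their values were seen. The members, the rule and the 47 lists were chosen with earlier results of these data known. Alternatives were total counts, DESeq2 1.42.0 size factors, TMM over 3 libraries, other filters, folds and intervals, and lists without their top member or opposite-strand genes. Results on a few genes are not reported here.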

Additional observations from a re-analysis of the deposited data

How the results depend on the processing

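No call of a gene or list turned to the opposite direction under another depth scaling, filter, interval or gene set. Higher and lower calls numbered 15 and 22 with at least 100 counts, and 97 and 95 with a 99% interval. With a fold of 1.5 there were 317 lower calls. Other alternatives left both counts within 1.5 times. The summed ratio of the interferon-stimulated genes was 1.11 without IFITM3 and RNF213, and its interval then held 1. Those genes were chosen after seeing the data, as the members with an interval above 1, so a lower ratio was bound to follow. Of 220 named genes under 3 other scalings, 654 of the values kept their call, 5 lost it (MANF, NUCB1-AS1, PITRM1-AS1 and SNORD3D with total counts, ZNF622 with DESeq2 size factors) and IFITM2 gained one. Over 45 lists 208 intervals held or excluded 1 as before, 8 came to hold 1 and 7 came to exclude it. Sums whose interval held 1 could cross 1, such as p53 targets, at 1.06 without the most counted member. No paired analysis was possible because each group holds 1 library, and no library could be left out. Without the filter of 15 counts there were 295 higher and 242 lower calls. A change under 2-fold in a gene of few counts is not detectable.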

Other observations

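Genes with a ZNF name, which encode zinc finger proteins and in many cases KRAB-type repressors, showed calls in both directions. They were listed by name alone, so the list also holds members without a KRAB domain. With 15 or more counts there were 74 of them. Of these 5 were higher and 5 lower, against 3.11% and 2.82% of all genes, 45 had a ratio under 1, and the summed ratio was 0.963 (95% exact binomial interval 0.902 to 1.03). ZNF473, which takes part in histone messenger RNA processing, had 8 counts with siNC, 23 with siPRMT6-1 and 13 with siPRMT6-2 (3.02, 1.30 to 7.81), with VRK3 opposite it in GENCODE. ZNF335 had 18, 37 and 39 counts (2.16, 1.20 to 4.03). Lower were ZNF710 with 48, 16 and 22 (0.350, 0.186 to 0.628) and ZNF324 with 24, 6 and 11 (0.263, 0.0878 to 0.660).

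Immediate early genes were mixed. FOSL1, an AP-1 subunit, had 124, 68 and 153 counts (0.576, 0.422 to 0.781) and EGR1, a zinc finger factor, 104, 69 and 85 (0.697, 0.507 to 0.954), both with intervals below 1. FOSL2 had 30, 51 and 78 (1.79, 1.12 to 2.90) and JUND 29, 45 and 39 (1.63, 1.00 to 2.696), with intervals above 1, and these were named after their values were seen. FOSB had 80, 83 and 120 (1.09, 0.792 to 1.501). No member was called, and the list had a summed ratio of 0.920 (0.831 to 1.02). Splicing factors had a ratio of 1.01 (0.957 to 1.07), with TRA2A, a splicing activator, the called member of 37 at 6, 17 and 10 counts (2.98, 1.12 to 9.22). Proteasome subunits had 0.970 (0.881 to 1.07) and none of 26 was called, against 3.11% higher and 2.82% lower over all genes. TGFBI, an extracellular matrix protein gene, had 27, 12 and 55 counts (0.467, 0.215 to 0.953), lower with siPRMT6-1 and above siNC with siPRMT6-2.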
